A study of Mus musculus with 16 samples.

Results

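The genes of glucose uptake and of the glycolytic enzymes were followed in resident macrophages of the mouse peritoneum, phagocytes of the abdominal cavity. They are 10 genes, chosen by symbol for their place in the pathway, with earlier results of these data known. Among them are the glucose transporter Slc2a1, the hexokinases Hk1, Hk2 and Hk3 and the isomerase Gpi1. The others are the phosphofructokinases Pfkl and Pfkp, the regulator Pfkfb3, the aldolase Aldoa and the kinase Pgk1. The 10 genes hold 173 probe sets that carry no other symbol. Some of the 19 probe sets of Pgk1 had the same mean level and differences as one another. These repeats are not separate measurements and count more than once in the mean of Pgk1. All 10 were among the 9387 genes bright enough to test, of 20848 that the array measured with such probe sets. The cells came from mice on the C57BL/6 background that lacked the proton-sensing receptor Ogr1 (KO) or were wild type (WT). Cells of each genotype, grown in RPMI medium with serum, spent 24 h in acidic (pH 6.7) or alkaline (pH 7.7) medium, which gave the groups KO pH 6.7, WT pH 6.7, KO pH 7.7 and WT pH 7.7 with 4 arrays each, 16 in all. The sample names give these pH values, while the treatment text gives 6.8 and 7.6. The labels give neither the sex nor the age of the mice nor how the allele was made. Whether each array is another animal or culture is also not stated, so p-values cover only the spread among these samples, and that spread may be technical. The KO labels were not checked against a transcript.

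Glucose enters these cells through transporters of the Slc2a family, is trapped by hexokinases as glucose 6-phosphate, and is committed to glycolysis when phosphofructokinase adds a further phosphate to fructose 6-phosphate. Phosphofructokinase is a tetramer built from liver (Pfkl), platelet (Pfkp) and muscle (Pfkm) subunits, and fructose 2,6-bisphosphate, made by Pfkfb enzymes, activates it. Macrophages are known to raise glycolysis on inflammatory activation, and several glycolytic genes are known targets of hypoxia-inducible factors. Phosphofructokinase itself is known to be inhibited by protons.

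The intensities were deposited by the authors, and a level here is the mean over a gene's probe sets of the log2 of that intensity. Levels of different genes are not compared, since each probe set responds in its own way. Medians of whole arrays ranged from 8.14 to 8.61 as intensities, or 3.03 to 3.11 in log2, and all 10 genes lay above the median of the array on all 16 arrays. WT pH 7.7 replicate 2 stood apart: its median Pearson r to the rest was 0.883, and that of each remaining array was 0.907 to 0.923. All 8 macrophage markers and all 6 of large peritoneal macrophages were bright enough to test, with 7 and 5 of them above the array median on all 16 arrays, while all 6 T and NK cell markers, the 3 measured eosinophil markers and the 3 measured red cell markers lay below it on all arrays. Of the 7 neutrophil markers 6 lay below it on all arrays and S100a8 above it on all 16, as did Cd209a of the 4 dendritic cell markers. The number of arrays limits the precision of what follows.

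The sequences ahead of the genes whose levels differed with pH, and of Pgk1 as a gene known for its hypoxia elements, are shown so that the motif counts can be read against them. They are the 250 bases before the annotated start in RefSeq (build GRCm38.p6), 5′ to 3′ on the gene's strand, with the core of the hypoxia response element, ACGTG or its reverse complement, in capitals. By RefSeq, Pfkfb3 lies on chromosome 2, Slc2a1 on 4, Hk2 on 6, Aldoa and Gpi1 on 7, Hk1 and Pfkl on 10, Hk3 and Pfkp on 13 and Pgk1 on X. The windows shown are chr10:78009808-78010057 (minus strand), chr13:6648772-6649021 (minus strand), chr13:55021386-55021635 (minus strand) and chrX:106186850-106187099 (plus strand).
Pfkl: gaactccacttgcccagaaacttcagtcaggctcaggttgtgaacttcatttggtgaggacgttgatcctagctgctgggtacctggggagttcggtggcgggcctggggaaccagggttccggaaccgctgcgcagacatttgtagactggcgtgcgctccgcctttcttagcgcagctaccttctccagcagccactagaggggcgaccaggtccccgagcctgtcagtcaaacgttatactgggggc
Pfkp: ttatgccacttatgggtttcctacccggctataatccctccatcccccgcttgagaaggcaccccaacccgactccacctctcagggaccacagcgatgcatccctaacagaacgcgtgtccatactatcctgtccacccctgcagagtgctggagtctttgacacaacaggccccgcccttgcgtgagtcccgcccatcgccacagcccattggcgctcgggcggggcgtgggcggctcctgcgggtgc
Hk3: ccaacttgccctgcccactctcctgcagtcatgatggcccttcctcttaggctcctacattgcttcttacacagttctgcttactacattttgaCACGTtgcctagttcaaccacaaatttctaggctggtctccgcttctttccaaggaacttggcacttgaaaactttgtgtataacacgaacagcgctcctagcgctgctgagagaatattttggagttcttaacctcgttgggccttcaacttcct
Pgk1: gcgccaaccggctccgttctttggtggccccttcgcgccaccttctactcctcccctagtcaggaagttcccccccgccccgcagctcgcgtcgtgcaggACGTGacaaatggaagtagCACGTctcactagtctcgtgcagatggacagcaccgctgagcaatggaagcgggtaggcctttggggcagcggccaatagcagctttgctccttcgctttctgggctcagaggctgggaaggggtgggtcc

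RefSeq held 14 promoters for the 10 genes, each from 250 bases before to 50 after a start. The core was present, on either strand, in 9 of the 14 and in at least 1 promoter of 7 genes: Slc2a1, Hk1, Hk2, Hk3, Pfkfb3, Aldoa and Pgk1. In the overlapping windows of Aldoa, the match at -202 in one and at -126 in the other is the same site. The core was present in 19.6% of all 32851 promoters in the table. It holds a CpG, and the GC content of the 14 promoters ran from 49.0% to 69.7%, against a median of 52.7% over all promoters. Hk3 had 1 match, starting at position -156 from the start site, and Pgk1 had 2, at -150 and -131. The letters were not in these windows for Pfkl, Pfkp and Gpi1. The E-box CACGTG, which overlaps the core, was in 1 of the 14 promoters (of Pfkfb3) and in 7.20% of all promoters. A match is a description of the letters and not a measured site.

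The first question was which of these genes differ between acidic and alkaline medium in each genotype. Pfkl was higher at pH 6.7 in KO and in WT cells, and Hk3 was lower at pH 6.7 in WT cells. Averaged over the genotypes, Pfkp was lower at pH 6.7. The remaining 7 genes did not pass the test in any of these comparisons. The test was limma's moderated test over all 9387 genes with Benjamini-Hochberg adjustment, and a gene is said to rise or fall where the adjusted p was under 0.05.

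**Figure D1:**
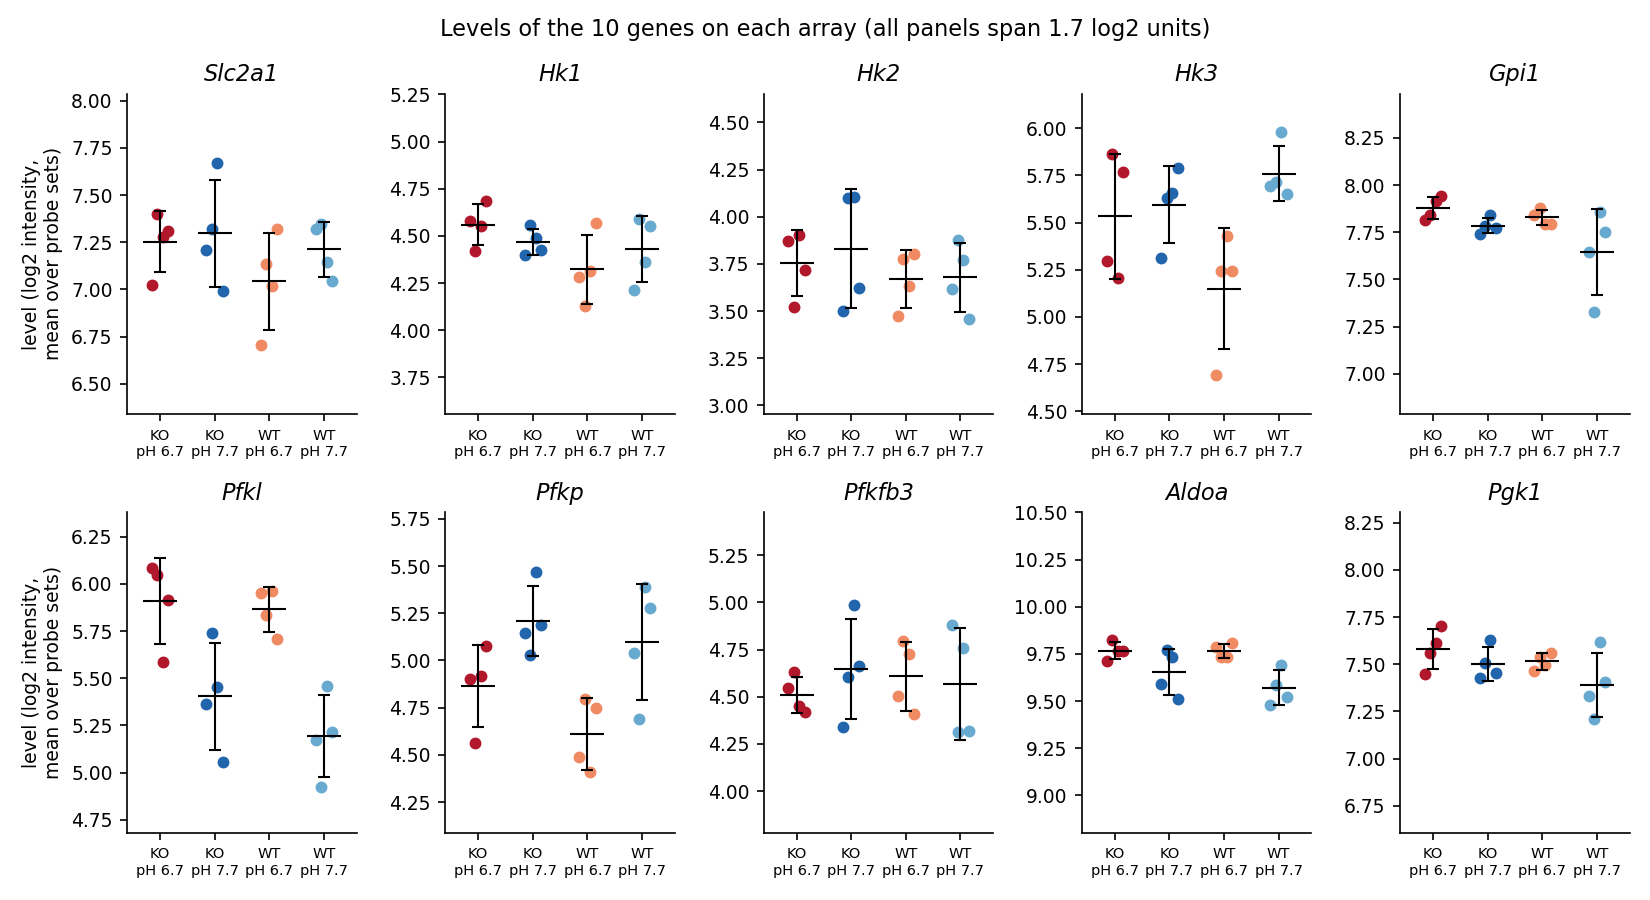
Level of each of the 10 genes on every array (vertical axes, log2 intensity averaged over the gene's probe sets; each panel spans 1.7 log2 units at its own height), with groups along the horizontal axis. Points are arrays, horizontal lines are group means and bars are 1 SD over 4 arrays. The WT points of Pfkl at pH 6.7 lie at 5.71 or above, and those at pH 7.7 at 5.46 or below.

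Pfkl encodes the liver subunit of phosphofructokinase. Its level in KO cells was 6.09, 6.05, 5.59 and 5.92 at pH 6.7, against 5.37, 5.74, 5.45 and 5.06 at pH 7.7. In WT cells it was 5.95, 5.84, 5.96 and 5.71 at pH 6.7, against 5.18, 4.93, 5.46 and 5.22 at pH 7.7. All WT arrays at pH 6.7 lay above all WT arrays at pH 7.7, while in KO the lowest array at pH 6.7 lay below the highest at pH 7.7. Pfkl rose 1.42-fold in KO cells (log2 fold change 0.51 ± 0.15, SE, with 4 arrays in each group, limma adjusted p = 0.032). In WT cells the log2 fold change was 0.67 ± 0.15 (limma adjusted p = 0.00855), which is 1.59-fold, and averaged over the genotypes it was 0.59 ± 0.10 (limma adjusted p = 0.000848). The share of all tested genes that rose was 9.65% in KO, 6.52% in WT and 14.6% in the average, and the count of these 10 genes that rose was 1 in each. The KO call was lost when KO pH 6.7 replicate 1, 2 or 4 or KO pH 7.7 replicate 1, 3 or 4 was left out (log2 fold change 0.39 to 0.52, limma adjusted p 0.055 to 0.0894), and the WT call held whichever of the 16 arrays was left out, with 0.58 (limma adjusted p = 0.0278) without the array that stood apart.

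Most of the 20 Pfkl probe sets, which cover parts of the gene, had the same direction: 17 were higher at pH 6.7 in KO, 19 in WT and 16 in both. The median difference over them was 0.49 in KO and 0.56 in WT. The 4 brightest, with levels of 7.45 to 8.03, differed by 0.05 to 0.12 in KO and by 0.46 to 0.63 in WT, a split chosen after the values were seen. Taking the brightest probe set alone as the gene's value ended the calls: the log2 fold change was then 0.09 in KO (limma adjusted p = 0.852), 0.46 in WT (limma adjusted p = 0.386) and 0.28 in the average (limma adjusted p = 0.352). The size of the KO difference thus depended on the probe sets used.

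Pfkp, the platelet subunit, had the opposite direction. Its level in KO cells was 4.90, 4.56, 4.92 and 5.07 at pH 6.7, against 5.14, 5.03, 5.47 and 5.19 at pH 7.7. In WT cells it was 4.49, 4.80, 4.41 and 4.75 at pH 6.7, against 5.04, 4.69, 5.39 and 5.28 at pH 7.7. In each genotype the groups overlapped, in KO through the highest array at pH 6.7 and in WT through the lowest at pH 7.7, which was the array that stood apart. Averaged over the genotypes Pfkp fell, with a log2 fold change of −0.42 ± 0.11 (SE, limma adjusted p = 0.0117), against a background of 6.27% of all tested genes that fell. The call was lost when the median over probe sets was taken (−0.36, limma adjusted p = 0.0939) and when dim probe sets were left out (−0.41, limma adjusted p = 0.069). Within the genotypes the log2 fold change was −0.34 ± 0.15 in KO (limma adjusted p = 0.148) and −0.49 ± 0.15 in WT (limma adjusted p = 0.0521). Without WT pH 7.7 replicate 2 the WT difference was −0.63 (limma adjusted p = 0.0151), and it also passed without KO pH 6.7 replicate 2 (limma adjusted p = 0.0461). Of 25 probe sets, 18 were lower at pH 6.7 in KO, 21 in WT and 16 in both, and with the brightest alone the log2 fold change was −0.78 in KO (limma adjusted p = 0.0289) and −0.82 in WT (limma adjusted p = 0.0383).

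**Figure D2:**
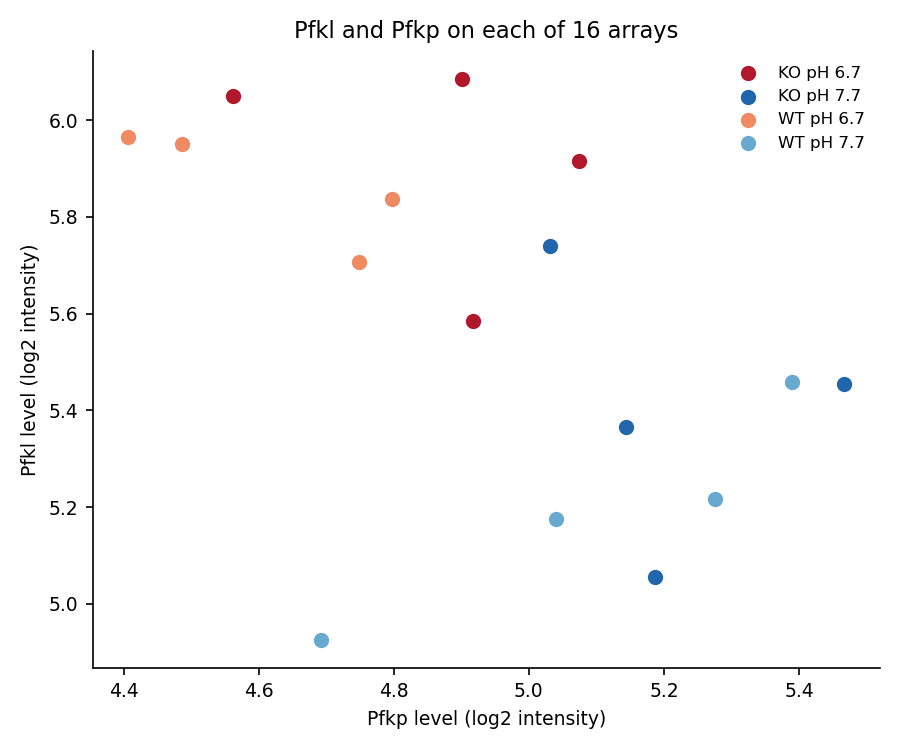
Level of Pfkl (vertical axis, log2 intensity) against that of Pfkp (horizontal axis, log2 intensity) on each of the 16 arrays, with a colour for each group. The arrays at pH 6.7 lie at 5.59 or above for Pfkl, and 1 of the 8 arrays at pH 7.7, a KO array, lies above that.

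Because both subunits were measured on every array, their difference could be followed array by array. Pfkl minus Pfkp in log2, whose zero point has no meaning on an array, averaged 1.04 ± 0.36 in KO and 1.25 ± 0.30 in WT at pH 6.7, and 0.20 ± 0.37 in KO and 0.09 ± 0.12 in WT at pH 7.7 (SD, n = 4 each). The lowest value at pH 6.7 was 0.67 in KO and 0.96 in WT, and the highest at pH 7.7 was 0.71 in KO and 0.23 in WT. The pair was chosen for these differences, so no test was made. Pfkm, the muscle subunit, had log2 fold changes of 0.15 ± 0.12 in KO (limma adjusted p = 0.45) and −0.07 ± 0.12 in WT (limma adjusted p = 0.774).

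Hk3 encodes the hexokinase found mainly in blood and myeloid cells. In KO cells its level was 5.30, 5.86, 5.21 and 5.77 at pH 6.7, against 5.31, 5.63, 5.66 and 5.79 at pH 7.7. In WT cells it was 4.69, 5.24, 5.43 and 5.24 at pH 6.7, against 5.70, 5.71, 5.98 and 5.65 at pH 7.7. The KO groups overlapped over nearly their whole range, and all WT arrays at pH 6.7 lay below all WT arrays at pH 7.7. Hk3 fell in WT cells and was 1.53-fold lower at pH 6.7 (log2 fold change −0.61 ± 0.17, SE, limma adjusted p = 0.0311). It was the only one of the 10 genes that fell there, against 3.21% of all tested genes. In KO cells the log2 fold change was −0.06 ± 0.17 (limma adjusted p = 0.845), where none of the 10 genes fell, against 3.55% of all tested genes. The WT call was lost without WT pH 6.7 replicate 1 (−0.46, limma adjusted p = 0.0951), WT pH 7.7 replicate 2 (−0.63, 0.0522) or WT pH 7.7 replicate 3 (−0.54, 0.0807), and with the brightest probe set alone (−0.50, 0.294). Of 19 probe sets, 12 were lower at pH 6.7 in KO and 18 in WT.

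**Figure D3:**
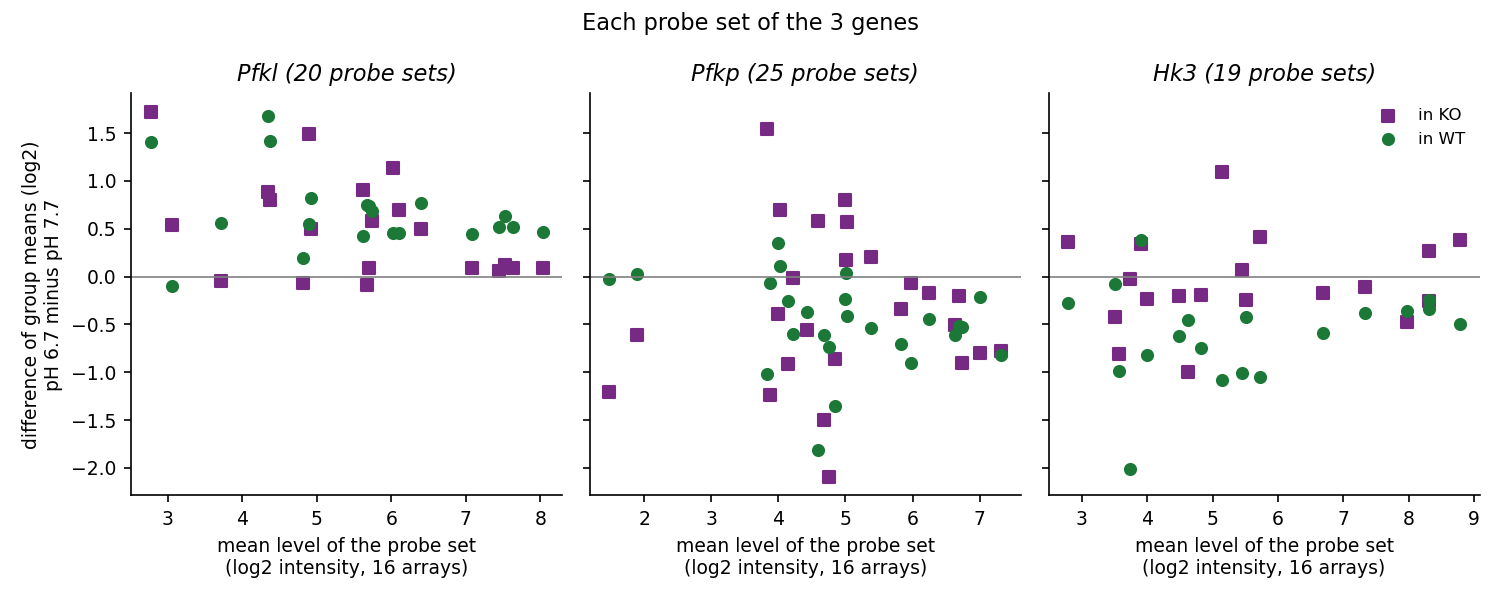
Difference of group means, pH 6.7 minus pH 7.7 in log2 (vertical axis), of each probe set of Pfkl, Pfkp and Hk3 against its mean level over 16 arrays (horizontal axis, log2 intensity), with squares for KO and circles for WT. For Pfkl 19 of 20 circles and 17 of 20 squares lie above 0, and for Hk3 18 of 19 circles and 12 of 19 squares lie below it.

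The other hexokinases did not pass the test. Hk1, the broadly expressed hexokinase of mitochondria, ran from 4.42 to 4.68 in KO at pH 6.7, against 4.40 to 4.56 in KO at pH 7.7, and from 4.13 to 4.57 in WT at pH 6.7, against 4.21 to 4.59 in WT at pH 7.7. Its log2 fold change was 0.09 ± 0.11 in KO and −0.11 ± 0.11 in WT. Hk2, the insulin- and hypoxia-responsive hexokinase, was at 3.87, 3.52, 3.90 and 3.72 in KO at pH 6.7, against 3.50, 4.10, 4.10 and 3.62 in KO at pH 7.7. In WT cells Hk2 was at 3.47, 3.77, 3.63 and 3.80 at pH 6.7, against 3.62, 3.88, 3.77 and 3.46 at pH 7.7. Its groups overlapped in each genotype, and its log2 fold change averaged over them was −0.04, with a 95% interval from −0.26 to 0.17.

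Slc2a1 encodes GLUT1, a glucose transporter of most cells. Its level was 7.02, 7.40, 7.28 and 7.31 in KO cells at pH 6.7, against 7.21, 7.32, 7.67 and 6.99 at pH 7.7. In WT cells it was 6.71, 7.13, 7.02 and 7.32 at pH 6.7, against 7.32, 7.35, 7.14 and 7.04 at pH 7.7. The groups overlapped in each genotype. The log2 fold change was −0.04 ± 0.15 in KO (limma adjusted p = 0.879) and −0.17 ± 0.15 in WT (limma adjusted p = 0.531). Its average over the genotypes had a 95% interval from −0.33 to 0.11, so a change of the size seen for Pfkl lay outside that interval.

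Among the enzymes after the hexokinases, other than phosphofructokinase, none passed the test. Gpi1, which turns glucose 6-phosphate into fructose 6-phosphate, ran from 7.81 to 7.94 in KO at pH 6.7, against 7.74 to 7.84 in KO at pH 7.7, and from 7.79 to 7.88 in WT at pH 6.7, against 7.33 to 7.86 in WT at pH 7.7. The 7.33 was that of the array that stood apart. The log2 fold change of Gpi1 was 0.09 ± 0.10 in KO and 0.18 ± 0.10 in WT (limma adjusted p = 0.568 and 0.276). Aldoa, which splits fructose 1,6-bisphosphate, was at 9.71, 9.83, 9.77 and 9.77 in KO at pH 6.7, against 9.59, 9.77, 9.74 and 9.51 in KO at pH 7.7. In WT cells Aldoa was at 9.79, 9.73, 9.73 and 9.81 at pH 6.7, against 9.48, 9.59, 9.69 and 9.52 at pH 7.7. The WT groups of Aldoa did not overlap, yet the log2 fold change was only 0.19 ± 0.08 (limma adjusted p = 0.154). In KO it was 0.11 ± 0.08 (limma adjusted p = 0.382), and in the average 0.15 ± 0.06 (limma adjusted p = 0.069). All 9 Aldoa probe sets were higher at pH 6.7 in WT and 7 of 9 in KO, and 1 further probe set shared with another gene was left out. Pgk1, which makes the first ATP of glycolysis, ran from 7.45 to 7.70 in KO at pH 6.7, against 7.43 to 7.63 in KO at pH 7.7, and from 7.47 to 7.56 in WT at pH 6.7, against 7.21 to 7.62 in WT at pH 7.7. Its log2 fold change was 0.08 ± 0.09 in KO and 0.12 ± 0.09 in WT (limma adjusted p = 0.625 and 0.465). Pfkfb3, which makes the activator of phosphofructokinase, ran from 4.42 to 4.63 in KO at pH 6.7, against 4.34 to 4.99 in KO at pH 7.7, and from 4.41 to 4.80 in WT at pH 6.7, against 4.31 to 4.88 in WT at pH 7.7. Its groups overlapped in each genotype, and its log2 fold change was −0.14 ± 0.15 in KO and 0.04 ± 0.15 in WT (limma adjusted p = 0.584 and 0.903).

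Over all 10 genes the median log2 fold change at pH 6.7 was 0.02 in KO, 0.02 in WT and −0.02 in the average, against 0.06, 0.03 and 0.04 over all tested genes. Of the 10, 1 rose, 0 fell and 9 did not pass in KO, and 1 rose, 1 fell and 8 did not pass in WT. At an unadjusted p under 0.05 there were 2 genes in KO and 4 in WT, against 28.8% and 24.5% of all tested genes. The split of calls over all genes depended on the scaling: in WT 67% of the calls were higher at pH 6.7, and 54.4% after another quantile normalization. In bulk RNA, fewer cells of a type and less RNA per cell cannot be told apart.

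**Figure D4:**
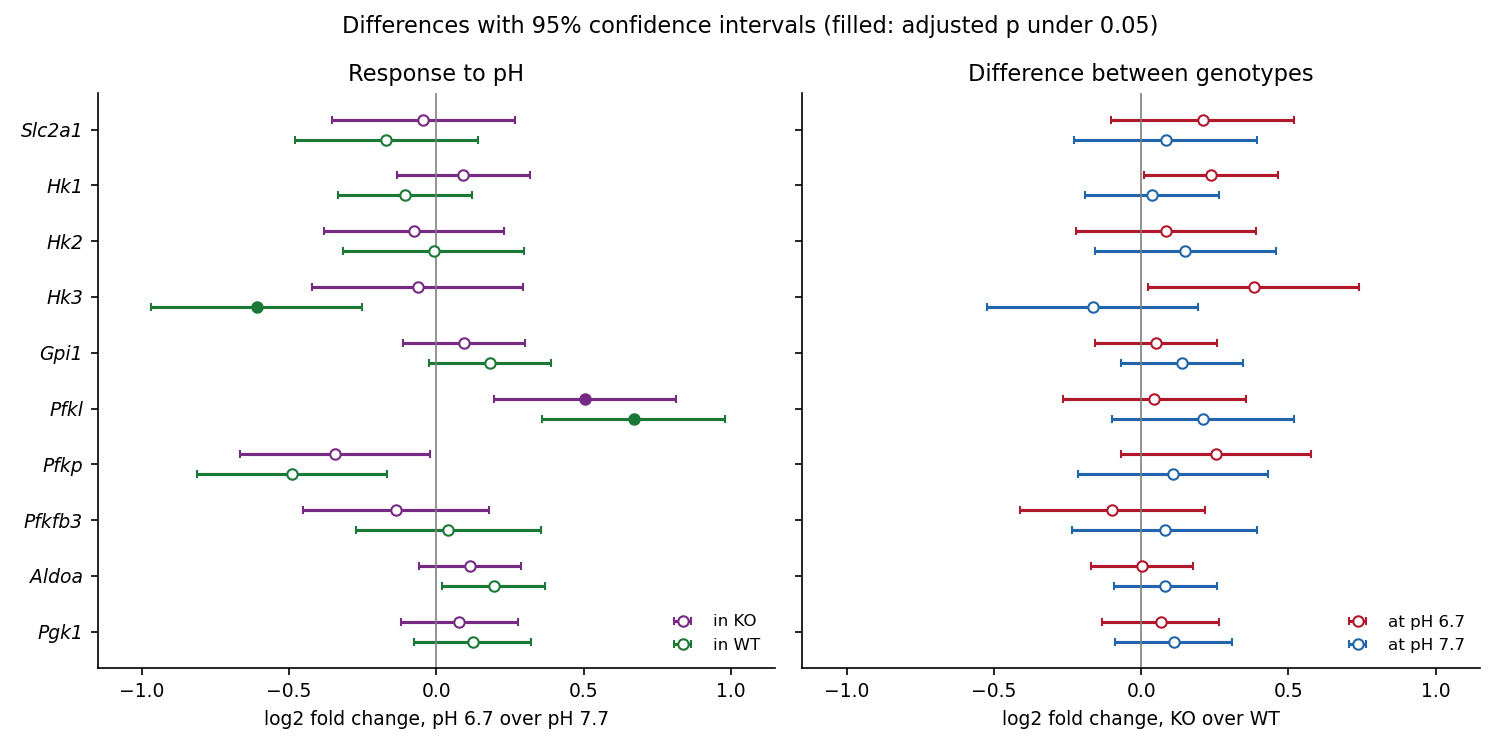
Log2 fold changes of the 10 genes with 95% confidence intervals (horizontal axes), for pH 6.7 over pH 7.7 in KO and WT (left) and for KO over WT at each pH (right). Filled points have an adjusted p under 0.05: Pfkl in KO (0.51) and in WT (0.67) and Hk3 in WT (−0.61), and none in the right panel.

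Across the 16 arrays, the levels of some of these genes moved together. Pearson's r was 0.884 for Gpi1 and Pgk1, 0.824 for Pfkl and Aldoa, 0.675 for Aldoa and Pgk1 and −0.496 for Pfkl and Pfkp. These values describe arrays that share a normalization and 4 groups. Among all other tested genes, those most like Pfkl were Rpn2 (r = 0.925), a subunit of the oligosaccharyltransferase, Chid1 (r = 0.924) and the magnesium transporter gene Slc41a1 (r = 0.922). The most like Pfkp were H2az1 (r = 0.919), a histone variant, Leo1 (r = 0.91), of the PAF1 complex, and Mrps22 (r = 0.893), of the mitochondrial ribosome. For Hk3 they were Zfp407 (r = 0.867), Parp16 (r = 0.847) and Flrt2 (r = 0.838).

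The next question was whether the receptor alters the response to pH, tested as the response in KO minus that in WT. None of the 10 genes passed, against 0.107% of all tested genes, which is 10 genes, with 80% of these higher and 66.7% of 18 after another quantile normalization. In limma, 1 of the 10 had an unadjusted p under 0.05, against 1249 (13.3%) of all tested genes, so the share of the 10 was near the background. It was Hk3, whose difference of responses was 0.55 ± 0.24 (SE, limma adjusted p = 0.339). For Pfkl the difference of responses was −0.17 ± 0.21 (limma adjusted p = 0.773), with a 95% interval from −0.60 to 0.27, and for Pfkp it was 0.15 ± 0.22 (limma adjusted p = 0.807). The call of Hk3 in WT and not in KO is therefore not shown to be a difference between the genotypes.

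The genotypes were also compared at each pH. At pH 6.7 none of the 10 genes passed, against 0.032% of all tested genes (3 genes), and 2 of the 10 had an unadjusted p under 0.05 in limma, against 1140 (12.1%) of all tested genes. Hk3 was higher in KO by 0.38 ± 0.17 in log2 (limma adjusted p = 0.373), and the KO values from 5.21 to 5.86 overlapped the WT values from 4.69 to 5.43. Hk1 was at 4.58, 4.42, 4.55 and 4.68 in KO at pH 6.7, against 4.28, 4.13, 4.31 and 4.57 in WT at pH 6.7, a log2 fold change of 0.24 ± 0.11 (limma adjusted p = 0.389). At pH 7.7 none passed, against 0% of all tested genes. There 0 of the 10 had an unadjusted p under 0.05 in limma, against 820 (8.74%) of all tested genes. The largest difference of the 10 at pH 7.7 was that of Pfkl, at 0.21 ± 0.15 (limma adjusted p = 0.729).

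Pfkl had the group order 5.91 ± 0.23 in KO pH 6.7, 5.86 ± 0.12 in WT pH 6.7, 5.40 ± 0.28 in KO pH 7.7 and 5.19 ± 0.22 in WT pH 7.7 (SD, n = 4 each). Hk3 averaged 5.53 ± 0.33 in KO pH 6.7 and 5.15 ± 0.32 in WT pH 6.7, and 5.60 ± 0.20 in KO pH 7.7 and 5.76 ± 0.15 in WT pH 7.7 (SD, n = 4 each), so the WT groups were its lowest and its highest. Pfkp averaged 4.86 ± 0.22 in KO pH 6.7 and 4.61 ± 0.19 in WT pH 6.7, and 5.21 ± 0.19 in KO pH 7.7 and 5.10 ± 0.31 in WT pH 7.7 (SD, n = 4 each), so both groups at pH 6.7 lay below both at pH 7.7. Of the groups next to each other in these orders, those that share a genotype or a pH were tested, and none passed.

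To set the 10 genes in their pathway, 72 further genes in 7 lists were examined, of which 69 had a probe set of their own and 52 were bright enough to test. In KO 6 of the 52 rose at pH 6.7 and 2 fell, against 9.65% and 3.55% of all tested genes. In WT 5 rose and 1 fell, against 6.52% and 3.21%, while 44 in KO and 46 in WT did not pass. Averaged over the genotypes, 11 rose and 3 fell, against 14.6% and 6.27%. The counts in KO and in WT lie near the background. None of the 52 passed in the difference of responses or between genotypes at either pH. The lists were chosen with earlier results of these data known, so they are described and not tested as sets.

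Among the other glucose transporters 3 of 8 were bright enough. Slc2a6, the lysosomal transporter GLUT6 of macrophages, fell at pH 6.7, with a log2 fold change of −0.83 ± 0.12 in KO (limma adjusted p = 0.000848) and −0.48 ± 0.12 in WT (limma adjusted p = 0.0193). Averaged over the genotypes it was −0.65 (limma adjusted p = 7.03e-05), a call that held whichever array was left out. The WT call of Slc2a6 was lost without WT pH 6.7 replicate 2 or WT pH 7.7 replicate 3 (limma adjusted p up to 0.0616). Slc2a8, the intracellular transporter GLUT8, rose in WT by 0.50 ± 0.12 (limma adjusted p = 0.0147), with 0.06 ± 0.12 in KO (limma adjusted p = 0.783) and a difference of responses of −0.44 ± 0.17 (limma adjusted p = 0.273). The average of Slc2a8 was 0.28 (limma adjusted p = 0.026), a call lost in 3 of 16 cases when 1 array was left out. With its brightest probe set alone the WT value of Slc2a8 was 0.37 (limma adjusted p = 0.559). The median of the list was 0.06 in KO and 0.33 in WT.

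Of 15 other glycolytic enzymes 10 were tested. Eno3, the muscle enolase, rose by 0.88 ± 0.13 in log2 in KO (limma adjusted p = 0.000897) and 0.66 ± 0.13 in WT (limma adjusted p = 0.00533). Its average was 0.77 (limma adjusted p = 3.69e-05). Eno2, the neuronal enolase, fell in KO with −0.75 ± 0.20 (limma adjusted p = 0.0237), with −0.41 ± 0.20 in WT (limma adjusted p = 0.236). At pH 6.7 Eno2 was dim, with means of 3.10 in KO and 3.26 in WT, near the array medians (3.03 to 3.11). It lay above the array median on 13 of the 16 arrays. Averaged over the genotypes Eno2 fell too (−0.58, limma adjusted p = 0.00917), whichever of the 16 arrays was left out. The average calls of Eno3 and Eno2 were lost with the brightest probe set alone (limma adjusted p = 0.306 and 0.0947). With the brightest probe set alone Eno3 had 0.26 in KO (limma adjusted p = 0.792) and 0.98 in WT (limma adjusted p = 0.367), and Eno2 in KO was lost there too (limma adjusted p = 0.143) and without 4 of the 16 arrays in turn (limma adjusted p up to 0.0744). The genes of the broadly expressed enolase, of pyruvate kinase and of glyceraldehyde 3-phosphate dehydrogenase, named after their values were seen, did not pass. Eno1 had −0.05 ± 0.14 in KO and 0.26 ± 0.14 in WT, and Pkm had −0.04 ± 0.12 in KO and −0.27 ± 0.12 in WT. Gapdh had −0.10 ± 0.08 in KO and 0.05 ± 0.08 in WT. The median of the list was −0.04 in KO and −0.07 in WT. Neither Pfkfb2 nor Pfkfb4, the 2 tested of 4 other genes of fructose 2,6-bisphosphate, passed in a genotype or in the average (list medians 0.15 in KO and −0.01 in WT).

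None of the 6 genes of lactate formation and export passed, with list medians of −0.08 in KO and 0.16 in WT. Ldha, the lactate dehydrogenase subunit of glycolytic cells, was named after its values were seen because its directions were opposite. Its log2 fold change was −0.28 ± 0.10 in KO (limma adjusted p = 0.0738) and 0.30 ± 0.10 in WT (limma adjusted p = 0.0748). The difference of responses was −0.58 ± 0.14 (limma adjusted p = 0.0987), so it missed the threshold too. Slc16a1 and Slc16a3, exporters of lactate, had average log2 fold changes of 0.13 and 0.03. Slc16a1 was dim, above the array median on 4 of the 16 arrays. Its means were 3.08 in KO and 2.94 in WT at pH 6.7, and 2.90 and 2.86 at pH 7.7.

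In the pentose phosphate pathway 2 of 7 tested genes rose in KO, 0 in WT and 2 in the average, against 9.65%, 6.52% and 14.6% of all tested genes, and none fell, with list medians of 0.18 in KO and 0.04 in WT. H6pd, of the endoplasmic reticulum, rose by 0.47 ± 0.14 in log2 in KO (limma adjusted p = 0.0379), with 0.35 ± 0.14 in WT (limma adjusted p = 0.13), and its average of 0.41 ± 0.10 passed (limma adjusted p = 0.008). Taldo1, the transaldolase, rose by 0.45 ± 0.14 in KO (limma adjusted p = 0.0454). Leaving out 1 array at a time ended the KO call of Taldo1 in 9 of 16 cases and that of H6pd in 7. Pgls, the lactonase, passed in the average (0.25 ± 0.08, limma adjusted p = 0.0415) and in 3 of those 16 cases.

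Of 11 tested genes of glycogen and gluconeogenesis, 3 rose in KO, 1 in WT and 4 in the average, against 9.65%, 6.52% and 14.6% of all tested genes, and none fell, with list medians of 0.10 in KO and 0.16 in WT. Gbe1, the glycogen branching enzyme, rose by 0.61 ± 0.14 in log2 in KO (limma adjusted p = 0.0122), with 0.46 ± 0.14 in WT (limma adjusted p = 0.0547). Averaged over the genotypes Gbe1 rose by 0.53 (limma adjusted p = 0.00155). That call held whichever of the 16 arrays was left out and in all 10 other settings run for the average. With the brightest probe set alone the average was 0.54 (limma adjusted p = 0.0409). Ugp2, which makes UDP-glucose for glycogen, rose by 0.47 ± 0.13 in KO (limma adjusted p = 0.0237), with −0.14 ± 0.13 in WT and a difference of responses of 0.61 ± 0.18 (limma adjusted p = 0.159). With the brightest probe set alone the KO value of Gbe1 was 0.51 (limma adjusted p = 0.145) and that of Ugp2 0.24 (limma adjusted p = 0.424). Pgm1, the phosphoglucomutase, rose by 0.37 ± 0.11 in KO (limma adjusted p = 0.0412), a call lost in 6 of 16 cases when 1 array was left out. Its average of 0.27 passed (limma adjusted p = 0.0231). With the brightest probe set alone Pgm1 was at 0.06 in KO (limma adjusted p = 0.928) and −0.19 in the average (limma adjusted p = 0.598). Pygl, the glycogen phosphorylase of liver and leukocytes, rose by 0.29 ± 0.07 in the average (limma adjusted p = 0.0047), with 0.28 in KO and 0.30 in WT. Both the average and the WT call of Pygl were lost with the brightest probe set alone. The average was then 0.21 (limma adjusted p = 0.326) and the WT value 0.14 (limma adjusted p = 0.785). The WT call of Pygl (limma adjusted p = 0.048) was lost in 14 of 16 cases when 1 array was left out. Pck2, the mitochondrial PEP carboxykinase, passed in the average (0.40 ± 0.13, limma adjusted p = 0.0422) and in 5 of those 16 cases. Pck2 was dim, above the array median on 9 of the 16 arrays. Its means were 3.36 in KO and 3.31 in WT at pH 6.7, and 2.99 and 2.88 at pH 7.7. The means at pH 7.7 lay below all array medians (3.03 to 3.11), so the filter favoured the groups where it was higher.

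**Figure D5:**
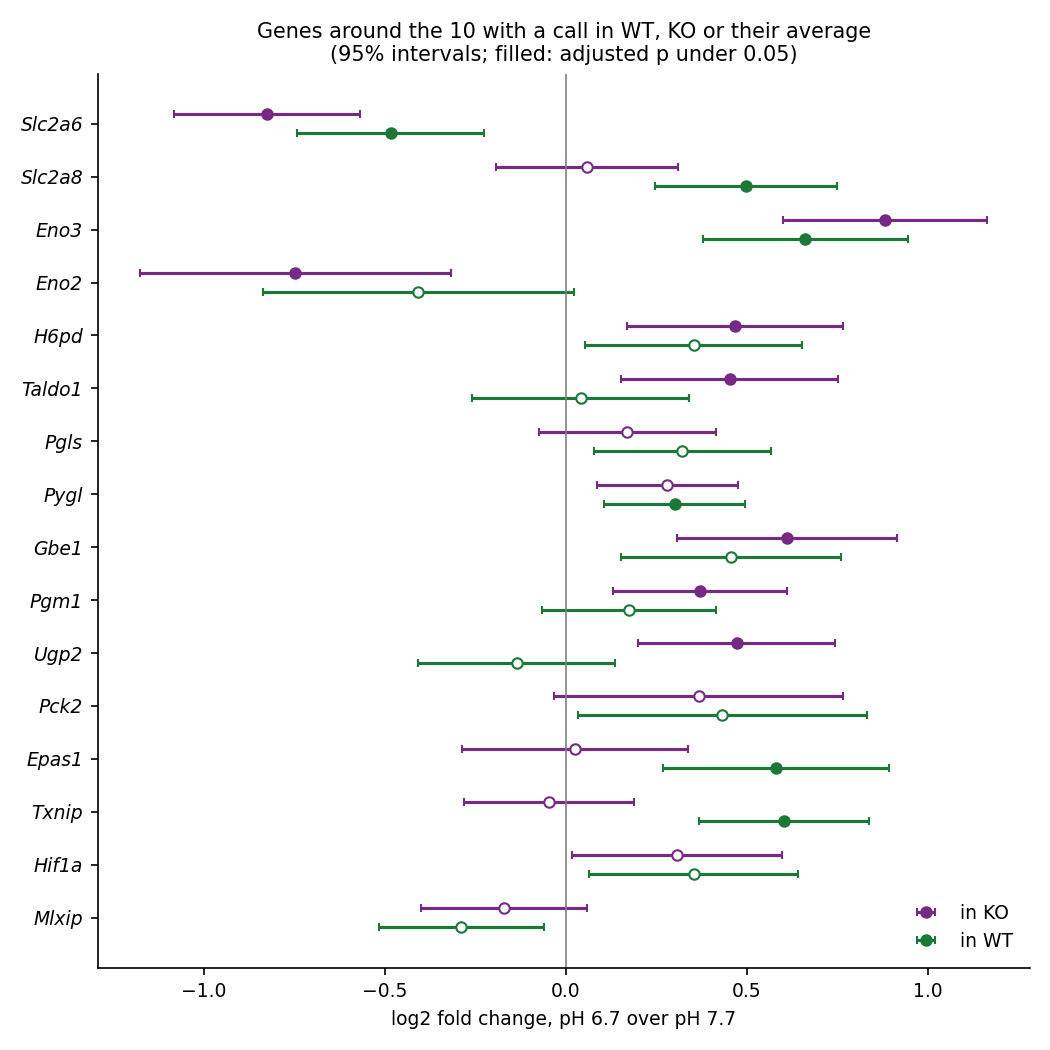
Log2 fold changes at pH 6.7 over pH 7.7 with 95% confidence intervals (horizontal axis) of the 16 genes around the 10 that passed in KO, in WT or in their average, with KO above WT for each gene. Filled points have an adjusted p under 0.05. Slc2a6 lies below 0 in each genotype (−0.83 in KO and −0.48 in WT) and Eno3 above it (0.88 in KO and 0.66 in WT).

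Of 13 tested regulators, 0 changed in KO, 2 rose in WT, and 3 rose and 1 fell in the average. Of all tested genes 9.65% rose and 3.55% fell in KO, 6.52% rose and 3.21% fell in WT, and 14.6% rose and 6.27% fell in the average. The list medians were 0.08 in KO and 0.21 in WT. Txnip, which restrains glucose uptake, rose in WT by 0.60 ± 0.11 in log2 (limma adjusted p = 0.00287), with −0.05 ± 0.11 in KO and a difference of responses of −0.65 ± 0.16 (limma adjusted p = 0.0987). The average of Txnip was 0.28 (limma adjusted p = 0.0188), a call lost with the brightest probe set alone (limma adjusted p = 0.504). Epas1, which encodes the hypoxia-inducible factor subunit HIF-2α, rose in WT by 0.58 ± 0.15 (limma adjusted p = 0.0197), with 0.03 ± 0.15 in KO and a difference of responses of −0.56 ± 0.21 (limma adjusted p = 0.26). The WT call of Epas1 was lost without WT pH 6.7 replicate 1 or WT pH 7.7 replicate 2 or 4 (limma adjusted p up to 0.0564). Its average of 0.30 passed (limma adjusted p = 0.0481), a call that 12 of the 16 omissions of an array ended. With the brightest probe set alone the WT value of Txnip was 0.61 (limma adjusted p = 0.0964) and that of Epas1 0.27 (limma adjusted p = 0.359). Hif1a, which encodes HIF-1α, rose in the average by 0.33 ± 0.10 (limma adjusted p = 0.0222), with 0.31 in KO and 0.35 in WT, and with the brightest probe set alone its average was 0.20 (limma adjusted p = 0.319). Mlxip, a glucose-sensing transcription factor, fell in the average with −0.23 ± 0.08 (limma adjusted p = 0.0419), a call that 9 of the 16 omissions of an array ended.

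Markers of other cell types moved with some of these comparisons, and their part in the results was not tested. In WT, 1 of 2 tested B cell markers (Cd79b, 1.27 ± 0.35 in log2, limma adjusted p = 0.0292) and the 1 tested dendritic cell marker (Cd209a, 1.11 ± 0.29, limma adjusted p = 0.0235) rose at pH 6.7, against 6.52% of all tested genes. Leaving out 1 array at a time ended the call of Cd79b in 5 of 16 cases and that of Cd209a in 3. Both were lost with the brightest probe set alone (limma adjusted p = 0.118 and 0.366). The summed linear level of the 4 measured B cell markers ran from 29.8 to 92.5 at pH 6.7, against 26.8 to 40.1 at pH 7.7 in WT, and that of the 4 dendritic cell markers from 86.3 to 108.6, against 33.0 to 74.9. In KO these sums ran from 30.7 to 43.0 at pH 6.7, against 30.6 to 74.5 at pH 7.7, for the B cell markers, and from 53.7 to 100.1, against 57.7 to 87.0, for the dendritic cell markers. Ms4a1 and Pax5 lay below the array median on all arrays of KO pH 6.7 and WT pH 7.7, and Flt3, Zbtb46 and Xcr1 on all 16 arrays. In KO, both tested mesothelial and fibroblast markers fell at pH 6.7 (Krt8 −0.91 ± 0.25 and Col1a1 −0.38 ± 0.09 in log2), against 3.55% of all tested genes. Both were dim: Krt8 lay above the array median on 7 of 16 arrays and Col1a1 on 4, none of them KO pH 6.7 for Col1a1. Krt8 averaged 2.86 in KO pH 6.7 and 3.77 in KO pH 7.7, so the filter partly set which markers could be called. With the brightest probe set alone both calls were lost (limma adjusted p = 0.626 and 0.108). The summed linear level of the 7 ran in KO from 31.8 to 36.8 at pH 6.7, against 41.0 to 49.3 at pH 7.7. Msln, Upk3b, Krt19, Col1a2 and Dcn lay below the array median on all 16 arrays. In WT that sum ran from 35.4 to 44.3 at pH 6.7, against 37.8 to 42.8 at pH 7.7. The 2 tested mast cell markers of 6 did not pass, with summed linear levels in KO of 28.1 to 45.5 at pH 6.7, against 53.5 to 92.5 at pH 7.7, and in WT of 29.9 to 194.4 at pH 6.7, against 24.6 to 52.1 at pH 7.7. Kit and Fcer1a lay below the array median on all arrays of KO pH 6.7, KO pH 7.7 and WT pH 7.7. S100a8, the 1 tested neutrophil marker, had log2 fold changes of 0.07 ± 0.15 in KO and −0.14 ± 0.15 in WT and did not pass. The summed linear level of the 7 neutrophil markers ran from 155.2 to 169.4 in KO and from 109.1 to 172.2 in WT at pH 6.7, and from 144.6 to 174.1 in KO and from 125.1 to 177.1 in WT at pH 7.7. The macrophage markers moved as well. In WT 3 of the 8 rose at pH 6.7, against 6.52% of all tested genes: Adgre1 (0.51, limma adjusted p = 0.0376), Fcgr1 (1.30, 0.0344) and Mertk (0.48, 0.0183). In KO 1 fell, against 3.55%: Itgam (−0.33, limma adjusted p = 0.0328). Leaving out 1 array at a time ended these calls in 6 (Adgre1), 5 (Fcgr1), 1 (Mertk) and 6 (Itgam) of 16 cases. Each was lost with the brightest probe set alone (limma adjusted p 0.183 to 0.716). The summed linear level of all 8 ran from 4081 to 4239 in KO and 4045 to 4557 in WT at pH 6.7. At pH 7.7 it ran from 4157 to 4377 in KO and 3903 to 4739 in WT. Of the 6 large peritoneal macrophage markers, Selp rose (2.55 ± 0.27 in log2) and Prg4 fell (−0.40 ± 0.12) in WT at pH 6.7, against 6.52% and 3.21% of all tested genes. None of the 6 passed in KO. The call of Selp held whichever array was left out, and that of Prg4 was lost in 6 of 16 cases.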

How the data were processed

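The labels put 4 arrays in each of 4 groups of genotype and pH. The authors deposited linear intensities of probe sets. RMA and R 2.15.2 made them, per the submitters' processing notes, and their log2 was taken here. The platform annotation gives 1 symbol for 213361 of the 241576 probe sets, several for 5107 and none for 23108. Those with 1 symbol were used, with symbols updated through RefSeq (GRCm38.p6). A gene's value was the mean log2 over its probe sets. Genes above the array's 50th percentile on at least 4 arrays were tested (9387) with limma 3.58.1 in R 4.3.3, with a mean per group over 16 arrays, eBayes, 2-sided tests and, in each of 6 comparisons, adjustment after Benjamini and Hochberg (threshold 0.05). Errors are SEs for fold changes and SDs for levels.

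The 10 genes, the 7 pathway lists and the 10 marker lists were chosen with earlier results of these data known. The naming rule took all 10 genes, up to 4 called genes with the smallest p per list and comparison, and, for the 3 of the 10 genes with the smallest p in the average, the 3 tested genes most correlated with each; others are said to be chosen after their values were seen. The fit was tested on simulated data. Alternatives changed the probe set rule, the dim-gene filter, the scaling, the variance model, array weights, pairing and the arrays used, and left out each array in turn. The labels name no batch. Replicate numbers showed no clear pairing of the arrays: deviations of same-numbered arrays correlated at −0.306 to 0.285, over 0.1 in 5 of 24 pairs. The highest value was that of replicate 1 between KO pH 6.7 and KO pH 7.7. Many of the pairs join the 2 genotypes, and weak correlations cannot exclude a pairing within a genotype.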

Additional observations from a re-analysis of the deposited data

How the results depend on the processing

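Of the 10 genes, 1 passed in KO, 2 in WT and 2 in the average over the genotypes. Of all tested genes 13.2% passed in KO, 9.73% in WT and 20.9% in the average. The share of all tested genes is not given for each alternative. The counts of the 10 genes below are thus not set against a background and describe the calls only. With the brightest probe set the count was 1 in KO, 1 in WT and 1 in the average, each time Pfkp. With only the probe sets above the array median it was 0 in KO, 1 in WT and 1 in the average. With the median over probe sets it was 0 in KO. Without a filter it was 0 in KO and 1 in WT, where more genes enter the adjustment. In fits of only the arrays of the groups compared it was 0 in KO and 1 in WT, with fewer arrays behind the spread. With the stricter filter at the 75th percentile, or with an intensity trend and robust eBayes, it was 4 in the average (Pfkl, Pfkp, Hk3 and Aldoa). Leaving out 1 array at a time gave 0 to 1 in KO, 1 to 3 in WT and 2 to 3 in the average. In the difference of responses and between genotypes at either pH it was 0 in all these settings. Pfkp in WT passed in 7 of 11 other settings: the brightest probe set (adjusted p = 0.0383), the 75th percentile (0.03), arrays centred on their medians (0.0333), quantile normalization again (0.0245), the trend with robust eBayes (0.0398), array weights (0.0196) and the replicate block (0.044). Hk3 in the average passed under the 75th percentile, the trend, centring (0.0461), quantile normalization (0.0308) and the replicate block (0.0341). Centring, quantile normalization and the replicate block each gave counts of 1 in KO, 3 in WT and 3 in the average. Since the numbers showed no clear pairing of the arrays, and 4 of 24 correlated best with their own number, the block is a check only. None of the called values of the 10 genes changed sign. Array weights ended the WT call of Hk3 (−0.53, adjusted p = 0.0742); the cause was not tested. Without a detection call, how far dim probe sets lie above background is unknown. Fits of only the groups compared were not run for the average and the difference of responses, which use all groups.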
